A study of Mus musculus with 14 samples.

Results

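Nodal, Lefty1, Lefty2, Tdgf1, Smad7, Skil, Bmp4, Id1, Id2 and Id3 carry and restrain Nodal and BMP signalling, and their RNA levels were followed in mouse embryonic stem (ES) cells entering an mTOR inhibitor-induced, diapause-like state. The 10 genes were taken by symbol from 54446 annotated genes, and all 10 passed the filter on low values that left 18232 genes for testing. E14 wild-type (WT) ES cells grown without feeders in serum and LIF were sequenced at 0, 24, 72 and 144 h of the mTOR inhibitor INK128 (mTORi), and Tet1/2 double-knockout (DKO) cells of the same line at 0, 24 and 72 h. Each of the 7 groups held 2 replicates, giving 14 libraries of rRNA-depleted total RNA from sorted cells. The DKO cells were derived from single cells sorted after Cas9 nucleofection of E14 with guides against Tet1 and Tet2, so in a difference from WT the deletions and the derivation of the clone cannot be told apart. The study describes its experiments as independently repeated, but the labels do not say whether these replicates were separate cultures, so p-values measure only the spread between these samples.

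Nodal is a TGF-β family ligand that acts through activin receptors together with Tdgf1 (Cripto), a cell-surface co-receptor, and passes its signal to SMAD2 and SMAD3. Lefty1 and Lefty2 are secreted Nodal antagonists that the pathway itself switches on, while Skil (SnoN) and Smad7 restrain the pathway inside the cell. BMP4 signals to SMAD1 and SMAD5, whose best-known targets are Id1, Id2 and Id3, inhibitors of basic helix-loop-helix transcription factors. In ES cells kept in serum with LIF, BMP input and Id proteins help to hold back differentiation, and Nodal input is active in the undifferentiated cells.

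Levels are given as spike-in normalized TPM. TPM is a length-corrected share of a library's transcripts, and each library was rescaled by 1 factor that carries the study's ERCC spike-in normalization. On this scale all genes of a library move together with its factor, and the median log2 change against 0 h over all 18232 genes was −0.33 after 24 h, −0.33 after 72 h and −0.83 after 144 h of mTORi in WT cells. For DKO cells the median was −0.49 after 24 h and −0.12 after 72 h. A gene was called where limma gave a Benjamini-Hochberg adjusted p under 0.05, and log2 fold changes (log2FC) are on log2(value + 1), given with their standard error (SE). Results on plain TPM, without the factor, are given beside these.

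The RNA of the targeted genes was examined before the comparisons. Tet2 stood between 128.7 and 210 spike-in normalized TPM in the WT libraries and between 27.1 and 55.0 in the DKO libraries. Tet1 overlapped between genotypes at each time on the spike-in scale. It was at 427 and 349 in the DKO replicates and 416 and 403 in WT at 0 h, at 436.5 and 238 against 392.5 and 472 after 24 h, and at 602 and 429 against 516.5 and 430 after 72 h. On plain TPM it was lower in DKO without overlap at each time (152 and 147 against 197 and 191 at 0 h, 195 and 176 against 274 and 255 after 24 h, and 238 and 248 against 313 and 289 after 72 h). A gene-level sum does not show whether the targeted exons are intact. The 5 ES cell markers were all detected and summed to between 2530 and 6440 in every library. Fibroblast markers summed to at most 42.1, and Thy1 alone of the 5 passed the filter on low values. The 6 primitive endoderm markers summed to between 144 and 338 in WT cells at 24 h, above the 26.5 to 89.5 at 0 h, and Gata6 (log2FC 2.18), Gata4 (2.27) and Sox17 (2.16) were called higher there. In the same comparison the sum of 5 mesendoderm markers went from 9.56 and 11.6 to 14.3 and 16.6, with Foxa2 called higher (1.56, adjusted p = 0.0101). T (0.29) and Eomes (−0.071) of that list were not called. The sum of 4 neuroectoderm markers went from 31.1 and 36.8 to 12.0 and 12.7, with Nes called lower (−1.62, adjusted p = 0.00435), and that of 5 fibroblast markers from 17.4 and 12.1 to 4.06 and 2.37. The part of these lists in the 24 h results was not tested. In bulk RNA, fewer cells of a type and less RNA per cell cannot be told apart.

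Among the 10 genes, Lefty1, Lefty2 and Tdgf1 have close copies from which reads can be misassigned, and the closest pair is shown. Lefty2 (ENSMUSG00000066652.5, chr1:180893108-180899103, plus strand) and Lefty1 (ENSMUSG00000038793.8, chr1:180935022-180938400, plus strand) lie 35919 bases apart on GRCm38 (mm10), and 1014 of 1104 aligned coding bases are identical (91.9%). Of the 50-base windows of Lefty1, 17.9% also occur in Lefty2. Tdgf1 (ENSMUSG00000032494.12, chr9:110939603-110946158, minus strand) shares 506 of 513 coding bases (98.6%) with Tdgf1-ps1, a processed copy on chromosome 16. The 90 bases from each start codon of that pair, from GENCODE M21 transcripts, run as follows, 5′ to 3′, with capitals at the 1 base that differs.
Tdgf1, in exons within chr9:110943237-110945843: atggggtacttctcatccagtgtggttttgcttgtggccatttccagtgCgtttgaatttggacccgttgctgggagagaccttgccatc
Tdgf1-ps1, chr16:3730510-3730599: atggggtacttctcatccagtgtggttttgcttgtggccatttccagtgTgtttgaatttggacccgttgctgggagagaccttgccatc
A read from the Tdgf1 stretch can thus differ from the copy at a single base. Tdgf1-ps1 was listed at 21.7% to 29.8% of the Tdgf1 level in each library, and the level of Tdgf1 is uncertain to that extent.

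Lefty2, the antagonist, varied most, with its highest group mean 21.1 times its lowest. The ratio was 6.98 for Lefty1, 5.86 for Id1, 3.77 for Id2, 3.62 for Tdgf1, 3.50 for Id3, 3.24 for Skil and 2.58 for Bmp4. Smad7 (1.82) and Nodal itself (1.67) varied least of the 10.

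**Figure D1:**
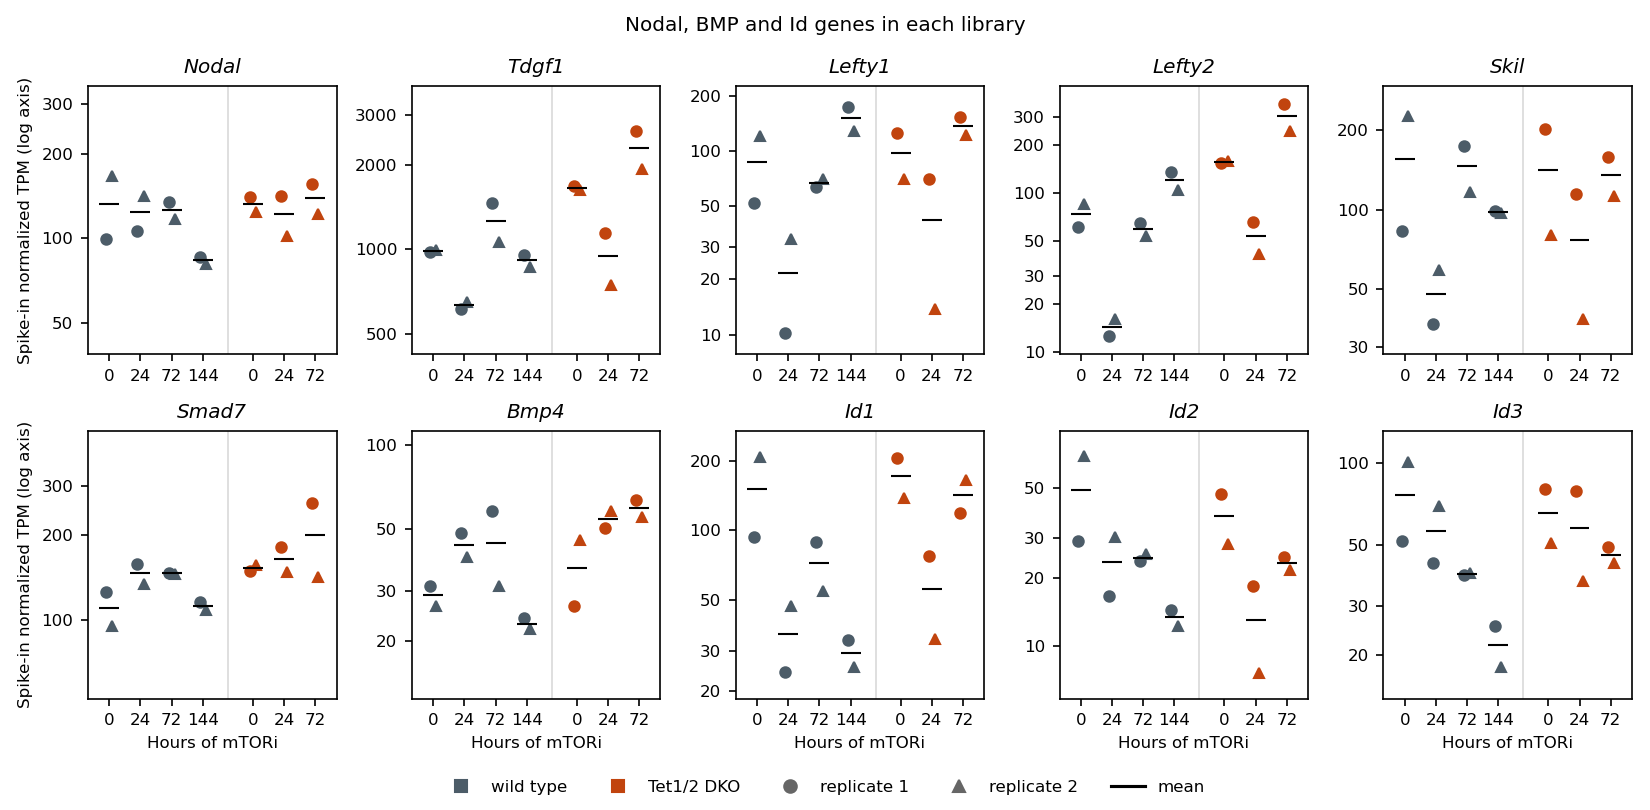
Spike-in normalized TPM (log axis) of the 10 genes against hours of mTORi, with WT in grey, DKO in orange, circles for replicate 1, triangles for replicate 2 and a black line at each group mean. Lefty2 dips at 24 h in both genotypes and its DKO libraries lie above the WT libraries of the same time, while the Nodal libraries lie between 81.1 and 167 throughout.

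Nodal (ENSMUSG00000037171.6, chr10:61417972-61425338, plus strand), the ligand, stood at 99.2 and 167 spike-in normalized TPM in WT replicates 1 and 2 at 0 h, 106 and 142 after 24 h, 135 and 117 after 72 h, and 85.9 and 81.1 after 144 h. The DKO replicates had 141 and 125 at 0 h, 142 and 102 after 24 h, and 157 and 123 after 72 h. The 144 h WT libraries were the lowest, and the other 6 groups overlapped their neighbours in the order of means. With all libraries and no pairing Nodal was called by limma in no comparison on either scale, and at 144 h its log2FC was −0.62 (SE 0.29, adjusted p = 0.0800) on the spike-in scale and 0.40 on plain TPM. With the replicates paired within each genotype it passed at 144 h on the spike-in scale (adjusted p = 0.0224), where the median gene stood at −0.83 and 66.3% of all genes were called lower. It was also called lower there without WT replicate 1 at 0 h or without either DKO replicate at 24 h, and from 72 to 144 h with the compared groups alone.

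Tdgf1, the Nodal co-receptor, was the most abundant of the 10 at 979 and 992 spike-in normalized TPM in WT cells at 0 h. It was 614 and 649 after 24 h, 1461 and 1066 after 72 h, and 958 and 867 after 144 h. DKO libraries held 1684 and 1632 at 0 h, 1146 and 749 after 24 h, and 2634 and 1939 after 72 h. The 24 h WT libraries were the lowest and the 72 h DKO libraries the highest, and neither overlapped the neighbouring group.

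Lefty2 was 61.4 and 85.7 spike-in normalized TPM in WT cells at 0 h and 12.6 and 16.2 after 24 h. It stood at 64.9 and 53.6 after 72 h and at 137 and 105 after 144 h, so the 24 h libraries lay below, and the 144 h libraries above, the other WT libraries. In DKO cells it was 155 and 160 at 0 h, 66.1 and 41.5 after 24 h, and 364 and 245 after 72 h. The DKO libraries stood above both WT libraries of the same time at 0, 24 and 72 h.

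Lefty1 was less even between replicates, at 52.4 and 121 spike-in normalized TPM in WT cells at 0 h, 10.2 and 33.1 after 24 h, 63.9 and 70.2 after 72 h, and 174 and 128 after 144 h. The DKO values were 126 and 70.7 at 0 h, 70.3 and 13.8 after 24 h, and 153 and 122 after 72 h. Its groups formed an order in which every neighbour overlapped the next, with 24 h lowest in both genotypes. Within a library the factor cancels, and the ratio of Lefty2 to Lefty1 ranged from 0.490 to 1.24 in the 8 WT libraries (median 0.803) and from 0.940 to 3.01 in the 6 DKO libraries (median 2.14). Those ranges overlap, and the lowest DKO ratios were those of replicate 1 at 0 and 24 h, at 1.24 and 0.940.

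Skil (ENSMUSG00000027660.16, chr3:31095058-31122577, plus strand), a SMAD co-repressor that is itself a target of the pathway, was 83.4 and 227 spike-in normalized TPM in WT cells at 0 h, 36.8 and 58.9 after 24 h, 175 and 117 after 72 h, and 98.8 and 97.3 after 144 h. The DKO pairs were 202 and 80.5, then 115 and 38.5, then 159 and 113. The 0 h replicates differed by 2.72-fold in WT cells, and the 24 h WT libraries lay below both of them. Smad7, the inhibitory SMAD of both branches, was 126 and 95.1 in WT cells at 0 h, 159 and 134 after 24 h, 147 and 146 after 72 h, and 116 and 109 after 144 h. Its DKO values were 149 and 156 at 0 h, 182 and 148 after 24 h, and 260 and 142 after 72 h, so the 0 h and 144 h WT libraries were the lowest.

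Bmp4 (ENSMUSG00000021835.15, chr14:46383520-46390669, minus strand), the BMP ligand, was 31.3 and 26.7 spike-in normalized TPM in WT cells at 0 h, 48.5 and 39.6 after 24 h, 57.8 and 31.4 after 72 h, and 24.1 and 22 after 144 h. The DKO pairs, in the same order of times, were 26.7 and 45.8, then 50.6 and 58.0, then 63.6 and 55.3. The 144 h WT libraries lay below every other library. Its locus overlaps Gm15217 and Gm15222 on the opposite strand, which had means of 0.0713 and 1.05.

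Id1 (ENSMUSG00000042745.9, chr2:152736251-152737410, plus strand) was 94.0 and 209 spike-in normalized TPM in WT cells at 0 h, 24.2 and 46.8 after 24 h, 89.1 and 54.4 after 72 h, and 33.3 and 25.4 after 144 h. In DKO cells it was 206 and 138, then 77.6 and 33.7, then 119 and 165. Libraries at 24 h were low in both genotypes and those of WT at 144 h were low again. Id2 (ENSMUSG00000020644.9, chr12:25093799-25097140, minus strand) was 29.1 and 69.1 in WT cells at 0 h, 16.7 and 30.3 after 24 h, 23.7 and 25.6 after 72 h, and 14.5 and 12.3 after 144 h. Its DKO values were 47.1 and 28.3, then 18.4 and 7.63, then 24.8 and 21.8. The lowest Id2 group means were those of DKO at 24 h and WT at 144 h. Id3 (ENSMUSG00000007872.3, chr4:136143497-136145755, plus strand) was 52.0 and 100 in WT cells at 0 h, 43.3 and 69.5 after 24 h, 39.2 and 39.7 after 72 h, and 25.6 and 18.0 after 144 h. For DKO these were 80.1 and 50.9, then 78.8 and 37.2, then 49.4 and 43.1. The 144 h WT libraries were the lowest for Id3 and overlapped no other group.

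Replicates of a group often differed in the same direction across these genes. WT replicate 2 exceeded replicate 1 in 8 of the 10 genes at 0 h and in 8 of 10 at 24 h, by up to 3.25-fold (Lefty1 at 24 h). In DKO cells at 24 h replicate 2 was higher in 1 of 10, and Lefty1 differed there by 5.11-fold. These counts carry the factors of replicates 1 and 2. The factors were 2.11 and 2.11 in WT at 0 h, 1.43 and 1.85 in WT at 24 h, and 2.24 and 1.36 in DKO at 24 h. On plain TPM in DKO at 24 h Nodal (63.5 and 74.9), Lefty2 (29.6 and 30.5), Tdgf1 (513 and 552), Smad7 (81.3 and 109) and Bmp4 (22.6 and 42.7) were higher in replicate 2. Lefty1 (31.5 and 10.1), Skil and the Id genes were higher in replicate 1 there. The primitive endoderm sum was also uneven, at 26.5 and 89.5 spike-in normalized TPM in WT replicates 1 and 2 at 0 h, 144 and 338 at 24 h, and 158 and 40.4 in DKO at 24 h. The sum of 5 trophectoderm markers was 48.2 and 98.2 in WT at 0 h, 33.8 and 101 in WT at 24 h, and 125 and 24.1 in DKO at 24 h. On the spike-in scale the high replicate of each pair was thus the same as for most of the 10 genes. The part of these cells in the results on Lefty1, Skil and the Id genes was not tested.

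Entry into the paused state was examined by setting each WT time against 0 h. At 24 h, 4 of the 10 genes fell and none was called higher, against 8.73% of all genes called lower. Lefty2 fell most (log2FC −2.26, SE 0.30, adjusted p = 0.000213), from a mean of 73.5 ± 17.2 to 14.4 ± 2.53 spike-in normalized TPM (SD, n = 2). Lefty1 fell by 2.05 on the log2 scale (SE 0.56, adjusted p = 0.0240), Id1 by 2.03 (SE 0.42, adjusted p = 0.00511) and Skil by 1.54 (SE 0.48, adjusted p = 0.0478). Relative to the median gene these were −1.93, −1.72, −1.69 and −1.21. Among the other 6, log2FC ran from −0.96 for Id2 and −0.64 for Tdgf1 to 0.41 for Smad7 and 0.58 for Bmp4.

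These calls rest unequally on single libraries. Lefty2 stayed called without any 1 of the 14 libraries. Without the filter on low values, Lefty2 alone of the 4 was called. Lefty1 lost its call without WT replicate 2 at 0 h (log2FC −1.45, adjusted p = 0.248) or without WT replicate 1 at 24 h (−1.24, adjusted p = 0.308). Id1 lost it without the same libraries (−1.46, adjusted p = 0.106, and −1.56, adjusted p = 0.0809). Skil lost it without 6 of the 14, and without WT replicate 2 at 0 h its log2FC was −0.83 (adjusted p = 0.488). On plain TPM, where 29.9% of genes were called, Skil was at −1.16 (adjusted p = 0.0755, or 0.0395 with paired replicates) and Smad7 passed as higher (0.78, adjusted p = 0.0218). With replicates paired within genotype, where 25.7% of genes were called lower, Tdgf1 (adjusted p = 0.0372) and Id2 (0.0190) were called lower as well, and neither was called with pairing on plain TPM.

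At 72 h no gene of the 10 was called against 0 h by limma, against 8.29% of all genes, and 2 of the 10 had an unadjusted p under 0.05. Lefty2 was back near its starting level (log2FC −0.29, SE 0.30), as were Lefty1 (−0.25, SE 0.56) and Skil (0.06, SE 0.48). The Id genes remained lower in value, at −1.0 for Id1, −0.84 for Id2 and −0.86 for Id3, and with paired replicates, where 25.4% of all genes were called lower, they passed (adjusted p = 0.0481, 0.0390 and 0.0282). With pairing on plain TPM none of the 3 Id genes was called. On plain TPM, where 12.6% of all genes were called higher, Tdgf1 (0.77, adjusted p = 0.00266) and Smad7 (0.84, adjusted p = 0.0199) passed as higher. On the spike-in scale the sum of the 5 trophectoderm markers went from 48.2 and 98.2 at 0 h to 17.2 and 21.7 at 72 h. Of these Tfap2c was at −2.32 and Cdx2 and Gata3 at −0.34, none of them called. The neuroectoderm sum went from 31.1 and 36.8 to 17.9 and 16.6, and the fibroblast sum from 17.4 and 12.1 to 7.80 and 4.50. Nes (−1.89, adjusted p = 0.00229) and Nanog (−1.30, adjusted p = 0.0256) were called lower. Sox1 (0.73) and Pax6 (−0.69), of the list of Nes, were not called. The part of these markers in the 72 h values was not tested.

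The return of Lefty2 was seen in the step from 24 to 72 h, a comparison added after the values were seen. It rose 4.11-fold in group mean (log2FC 1.97, SE 0.30, adjusted p = 0.00227), where 0.428% of all genes were called higher, and without WT replicate 1 at 72 h its log2FC was 1.83 (adjusted p = 0.145). The call was also lost without the filter on low values. Lefty1 was at 1.80 (SE 0.56), Skil at 1.60 (SE 0.48) and Tdgf1 at 0.98 (SE 0.28). These 3 passed with paired replicates, where 3.2% of genes were called higher (adjusted p = 0.00750, 0.00502 and 0.0107). On plain TPM Skil (1.64, adjusted p = 0.0419) and Tdgf1 (1.04, adjusted p = 0.00257) passed, where 5.33% of genes were called higher. In the same step the primitive endoderm sum went from 144 and 338 to 22.5 and 57.5, with Gata4 (−2.91), Sox17 (−2.74), Sox7 (−2.13) and Foxa2 (−2.01), the last of the mesendoderm list, called lower. The part of these markers in the step was not tested.

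At 144 h the 3 Id genes were low and the 2 Lefty genes were at their highest WT level. Id1 (log2FC −2.23, SE 0.42, adjusted p = 0.000619), Id2 (−1.67, SE 0.42, adjusted p = 0.00401) and Id3 (−1.71, SE 0.38, adjusted p = 0.00175) fell against 0 h. In that comparison 50.5% of all genes were called lower, so a count of 3 of 10 lower is below the background share. Relative to the median gene the 3 genes stood at −1.40, −0.84 and −0.87. On plain TPM, where 11.7% of genes were called lower, Id1 alone of the 3 passed (−1.21, adjusted p = 0.0482), and with paired replicates it did not (adjusted p = 0.0517). Beside it were −0.68 (adjusted p = 0.164) for Id2 and −0.70 (adjusted p = 0.0890) for Id3. On the spike-in scale Id1 and Id3 stayed called without any 1 library, and Id2 was at −1.06 (adjusted p = 0.0989) without WT replicate 2 at 0 h. Marker sums of other cell types were lower at 144 h too, from between 48.2 and 98.2 to between 15.4 and 18.1 for trophectoderm and from between 26.5 and 89.5 to between 12.9 and 14.8 for primitive endoderm. Gata3 (−2.38), Tfap2c (−1.86), Gata4 (−1.84), Sox17 (−1.72), Sox7 (−1.77), Foxa2 (−1.14), Nes (−2.00) and Thy1 (−1.23) of these and other lists were called lower, as were Nanog (−1.64), Pou5f1 (−1.02) and Zfp42 (−0.80) of the ES cell list. On plain TPM the primitive endoderm sums overlapped (12.6 and 42.4 at 0 h, 13.8 and 12.9 at 144 h). The trophectoderm sums did not (22.8 and 46.5 at 0 h, 16.9 and 15.4 at 144 h). The part of these markers in the fall of the Id genes was not tested.

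Lefty1 and Lefty2 stood near the top of all genes at 144 h, at percentiles 99.5 and 99.1 of log2FC. Their changes against 0 h were 0.90 (SE 0.56, adjusted p = 0.180) and 0.72 (SE 0.30, adjusted p = 0.0534) on the spike-in scale, or 1.73 and 1.55 above the median gene. On plain TPM, where 15.6% of genes were called higher, both passed, with log2FC of 1.90 (adjusted p = 0.0240) and 1.72 (adjusted p = 0.000119). With paired replicates on the spike-in scale, where 1.05% of all genes were called higher, both passed as well (adjusted p = 0.0499 and 0.0133). Tdgf1 (0.91, adjusted p = 0.00102) and Smad7 (1.05, adjusted p = 0.00619) passed as higher on plain TPM, whereas on the spike-in scale they were at −0.11 and 0.04.

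In the step from 72 to 144 h, also added later, no gene of the 10 was called by limma, against 0.395% of all genes, and 4 had an unadjusted p under 0.05. With paired replicates Lefty1 (1.15, adjusted p = 0.0487) and Lefty2 (1.01, adjusted p = 0.0150) were called higher, where 0.121% of all genes were. Id1 (−1.23, adjusted p = 0.0329), Id3 (−0.85, adjusted p = 0.0444) and Bmp4 (−0.86, adjusted p = 0.0284) were called lower there, where 18.5% of genes were. On plain TPM Lefty2 was called higher (1.60, adjusted p = 0.00436), where 0.236% of genes were, and Id1 (−0.64), Id3 (−0.26) and Bmp4 (−0.28) were not called, with or without pairing. On the spike-in scale Gata3 was called lower (−2.04, adjusted p = 0.0122), while Cdx2 (−0.27) and Tfap2c (0.46) of its list were not called. The primitive endoderm sum went from 22.5 and 57.5 to 14.8 and 12.9, and the neuroectoderm sum from 17.9 and 16.6 to 13.8 and 13.8. On plain TPM the former overlapped, and the latter went from 10.8 and 11.1 to 12.9 and 13.8. The part of these markers in the step was not tested.

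**Figure D2:**
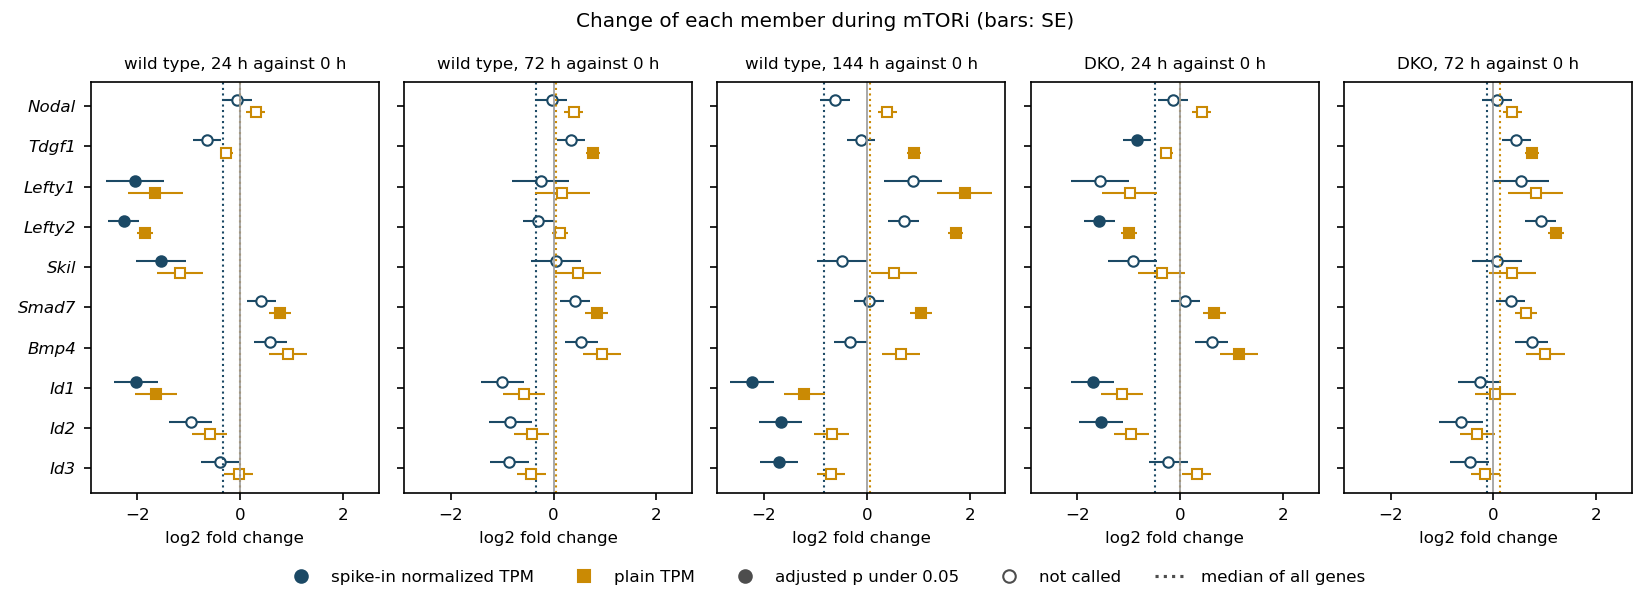
Log2 fold changes against 0 h (points, with SE bars) of the 10 genes at 24, 72 and 144 h in WT and at 24 and 72 h in DKO, on spike-in normalized TPM (blue circles) and plain TPM (ochre squares), filled where the adjusted p was under 0.05. Dotted lines mark the median of all genes on each scale, and at 144 h the 2 scales part by about the distance between those lines while Lefty1 and Lefty2 lie above and Id1, Id2 and Id3 below the medians on both.

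The DKO cells, followed up to 72 h, were compared with DKO cells at 0 h. At 24 h, 4 of the 10 genes fell, while 18.7% of all genes were called lower. The neuroectoderm marker sum went from between 27.1 and 38.0 to between 8.81 and 12.2 spike-in normalized TPM, with Nes (−1.73, adjusted p = 0.00175) and Sox1 (−1.07, adjusted p = 0.0363) called lower, and the fibroblast sum from between 29.5 and 42.1 to between 6.0 and 10. Their part in the result was not tested. The 4 genes were Lefty2 (log2FC −1.57, SE 0.30, adjusted p = 0.00197), Id1 (−1.70, SE 0.42, adjusted p = 0.00915), Id2 (−1.53, SE 0.42, adjusted p = 0.0163) and Tdgf1 (−0.84, SE 0.28, adjusted p = 0.0382). Lefty1 was at −1.55 (SE 0.56, adjusted p = 0.0556) and Skil at −0.93 (SE 0.48, adjusted p = 0.185), and both passed with paired replicates, where 38.1% of genes were called lower (adjusted p = 0.00433 and 0.0310). Lefty2 alone kept its call as lower on plain TPM (−1.0, adjusted p = 0.00137), where Id2 passed as well with paired replicates (adjusted p = 0.0338). There, unpaired, Id1 was at −1.12 (adjusted p = 0.0673), Id2 at −0.95 (adjusted p = 0.0661) and Tdgf1 at −0.27, where 13.3% of genes were called lower. Smad7 (0.66, adjusted p = 0.0486) and Bmp4 (1.14, adjusted p = 0.0468) passed as higher on plain TPM, where 11.6% of genes did. Without DKO replicate 2 at 24 h the calls of Id1 (−1.11, adjusted p = 0.131), Id2 (−0.95, adjusted p = 0.201) and Tdgf1 (−0.53, adjusted p = 0.296) were lost, as they were without DKO replicate 1 at 0 h (−1.41, −1.17 and −0.82). Tdgf1 lost its call without 5 further libraries. Without the filter on low values these 3 calls were lost, and with the compared groups alone those of Id2 and Tdgf1 were.

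At 72 h in DKO cells limma called none of the 10 against 0 h, beside 3.66% of all genes, and 2 had an unadjusted p under 0.05. Lefty2 was at 0.92 (SE 0.30, adjusted p = 0.0930) and Bmp4 at 0.74 (SE 0.32, adjusted p = 0.205), and both passed with paired replicates (adjusted p = 0.0132 and 0.0389), where 5.34% of genes were called higher. On plain TPM Lefty2 (1.21, adjusted p = 0.000767) and Tdgf1 (0.75, adjusted p = 0.00320) passed, where 17.2% of genes were called higher. On the spike-in scale limma called the mesendoderm marker T higher (1.25, adjusted p = 0.043), while Eomes (0.39) and Foxa2 (−0.81) were not called. The fibroblast marker Thy1 was called lower (−1.47, adjusted p = 0.0376), and the trophectoderm sum went from 116 and 47.9 to 34.4 and 18.6. The part of these markers in the 72 h values was not tested. From 24 to 72 h, where 1.32% of all genes were called higher, Lefty2 rose 5.67-fold in group mean (log2FC 2.49, SE 0.30, adjusted p = 0.000182) and Tdgf1 rose too (1.29, SE 0.28, adjusted p = 0.0187). The Tdgf1 call was lost without DKO replicate 2 at 24 h (0.98, adjusted p = 0.154) or DKO replicate 1 at 72 h (1.06, adjusted p = 0.300), and also without the filter on low values or with the compared groups alone. With paired replicates Lefty1, Id1, Id2 and Skil joined them (log2FC 2.08, 1.43, 0.91 and 1.0), where 12.7% of all genes were called higher. Tdgf1 and Lefty2 were called on plain TPM, where 4.47% of genes were called higher, and pairing there added Lefty1 but not Id1, Id2 or Skil. On the spike-in scale the neuroectoderm sum went from 12.2 and 8.81 to 27.8 and 19.9 in this step. The mesendoderm sum went from 12.2 and 8.67 to 16.9 and 13.1, and the fibroblast sum from 6.0 and 10 to 12.4 and 12.8. The primitive endoderm and trophectoderm sums overlapped. Sox1 (1.24), Nes (1.05), T (0.70), Thy1 (0.58) and Foxa2 (−0.75) were not called. The part of these markers in the step was not tested.

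Loss of Tet1 and Tet2 was then examined at each time. Lefty2 was the 1 gene of the 10 called between genotypes, and it was higher in DKO cells both at 24 and at 72 h. At 24 h the means were 53.8 ± 17.4 in DKO and 14.4 ± 2.53 in WT spike-in normalized TPM (SD, n = 2), a 3.73-fold difference (log2FC 1.80, SE 0.30, adjusted p = 0.0200). At that time 0.011% of all genes were called higher. At 72 h the means were 305 ± 84.1 and 59.2 ± 7.98, a 5.15-fold difference (log2FC 2.32, SE 0.30, adjusted p = 0.00181), where 0.302% of genes were called higher. It was called on plain TPM too, at 1.67 (adjusted p = 0.00219) and 1.90 (adjusted p = 0.000818), where 0.581% and 3.17% of all genes were called higher.

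At 0 h limma called none of the 10 between genotypes, beside 0.0439% of all genes, and 2 had an unadjusted p under 0.05. Lefty2 was at 1.11 (SE 0.30, adjusted p = 0.328) and Tdgf1 at 0.75 (SE 0.28, adjusted p = 0.504), with DKO libraries of both above the WT libraries. On plain TPM, where 0.422% of all genes were called higher, Lefty2 passed at 0 h (0.81, adjusted p = 0.0497). Fibroblast marker sums at 0 h, 29.5 and 42.1 in DKO and 17.4 and 12.1 in WT, did not overlap, and their part in this difference was not tested. At 72 h Lefty1 was at 1.02 (SE 0.56), Id1 at 1.0 (SE 0.42) and Tdgf1 at 0.86 (SE 0.28), none of them called, beside a median gene at 0.49.

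The Lefty2 call at 24 h was lost without the filter on low values and with the compared groups alone, and the call at 72 h was kept in both. Single libraries also decided it. At 24 h the call was lost without WT replicate 1 (log2FC 1.63, adjusted p = 0.216) or DKO replicate 1 (1.47, adjusted p = 0.0713). At 72 h it was lost without WT replicate 2 (2.19, adjusted p = 0.0769) or DKO replicate 1 (2.04, adjusted p = 0.105). The direction was the same in each case. Primitive endoderm marker sums were 40.4 to 158 in DKO and 144 to 338 in WT at 24 h, and 40.6 to 86.6 in DKO and 22.5 to 57.5 in WT at 72 h. Mesendoderm sums did not overlap between genotypes at 24 h (8.67 to 12.2 in DKO and 14.3 to 16.6 in WT) or at 72 h (13.1 to 16.9 and 9.10 to 9.22). At those times Foxa2 was at −1.41 and −0.14, T at −0.22 and 0.60 and Eomes at 0.042 and 0.61, none of them called. Fibroblast sums did not overlap at 24 h (6.0 to 10 and 2.37 to 4.06) or at 72 h (12.4 to 12.8 and 4.50 to 7.80), and neuroectoderm sums did not at 72 h (19.9 to 27.8 and 16.6 to 17.9). On plain TPM the fibroblast sums at 24 h overlapped (2.68 and 7.39 in DKO, 2.83 and 1.28 in WT). The neuroectoderm sums at 72 h did too (10.97 and 11.54 in DKO, 10.83 and 11.14 in WT). Thy1, the only fibroblast marker tested, was not called at 24 or 72 h (log2FC 1.14 and 1.0). Nes (1.37), Sox1 (0.11) and Pax6 (−1.03) were not called at 72 h. The part of these lists in the Lefty2 difference was not tested.

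**Figure D3:**
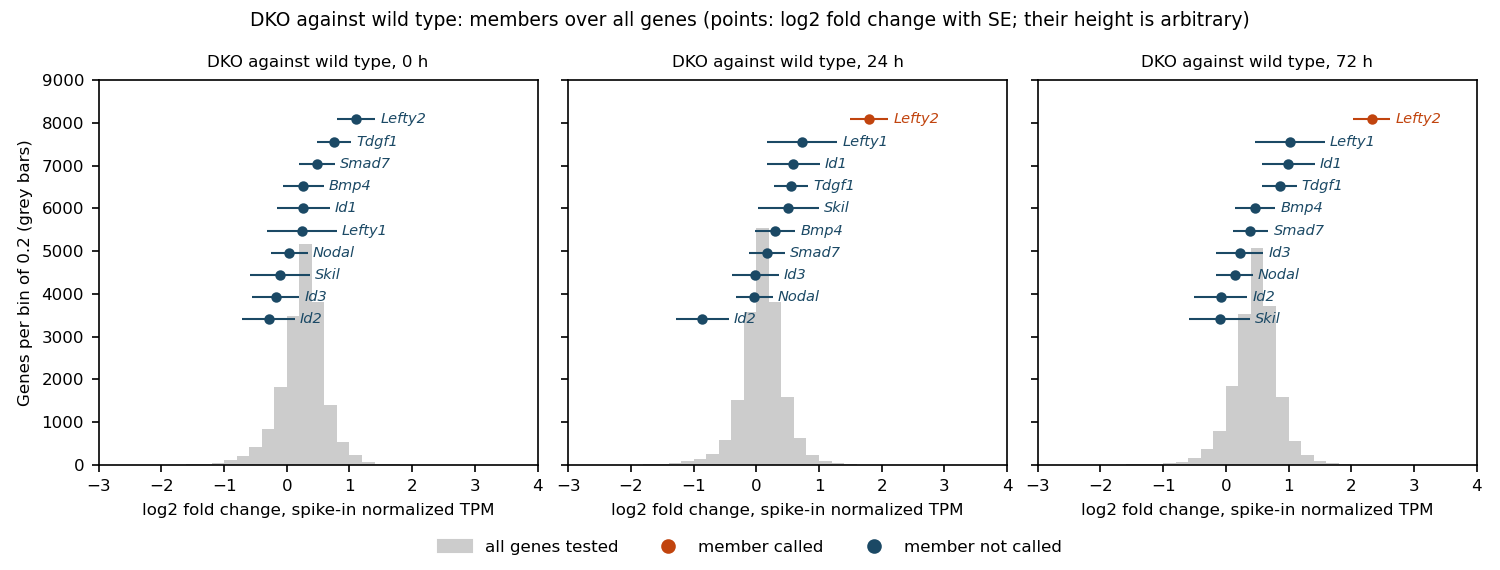
Log2 fold changes of DKO over WT at 0, 24 and 72 h on spike-in normalized TPM, with a grey histogram of all 18232 genes in bins of 0.2 and points with SE bars for the 10 genes, orange where called (point heights are arbitrary). Lefty2 lies at 1.11, 1.80 and 2.32 at the 3 times, to the right of the bulk of the histogram.

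Whether the response to mTORi itself differed was tested as the DKO change minus the WT change. For none of the 10 genes did limma call it at 24 h, where 0.00548% of all genes were called and 0 of the 10 had an unadjusted p under 0.05, or at 72 h, where 0% of genes were called and 1 of the 10 had one. That gene was Lefty2, whose change from 0 h to 72 h was larger in DKO by 1.21 on the log2 scale (SE 0.43, unadjusted p = 0.0101, adjusted p = 1). At 24 h its difference was 0.69 (SE 0.43, adjusted p = 1). The lack of a call does not show that the response of Lefty2 was alike, since this test had a larger SE than that of the level and called almost no gene.

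The rest of the pathway was described from lists of ligands, receptors, antagonists, SMADs and target genes holding 91 other genes, 63 of which were tested. At 24 h in WT cells 1 of the 63 was called higher and 1 lower, where 1.25% and 8.73% of all genes were. Bmper, a secreted BMP modulator, rose (log2FC 2.19, SE 0.42, adjusted p = 0.00306) from 1.5 and 2.62 to 11 and 14.7 spike-in normalized TPM. Dusp9, a MAP kinase phosphatase and BMP target, fell (−1.19, SE 0.37, adjusted p = 0.0433). On plain TPM 19 of the 63 were called higher and 4 lower (15.8% and 14.1% of all genes), and with paired replicates 8 and 7 (4.48% and 25.7%). At 72 h Gdf15 (−2.25) and Fstl3 (−1.45) were called lower, as were 7.6% of all genes. On plain TPM the counts at 72 h were 14 higher and 2 lower (12.6% and 11.4% of all genes), and with paired replicates 3 and 7 (2.85% and 25.4%).

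At 144 h in WT cells 28 of the 63 were called lower and 0 higher, against 50.5% and 0.461% of all genes, with a list median of −0.72 beside −0.83 for all genes. Those that fell included the inhibitory SMAD gene Smad6 (−1.97, adjusted p = 0.000387), which went from 11.9 and 9.43 to 2.02 and 1.91. They also included Smad2 (−1.11), Smad3 (−1.03), the SMAD partner Foxh1 (−1.03), the BMP receptor Bmpr1a (−1.03) and the ligand Gdf3 (−1.0), and none of these 5 was called on plain TPM, where they lay between −0.10 for Smad3 and 0.015 for Gdf3. On plain TPM the 63 genes split as 18 higher and 5 lower, where 15.6% of all genes were called higher and 11.7% lower, with Smad6 (−1.05, adjusted p = 0.00729) among the lower.

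The target lists differed in their counts at 144 h. Of 12 tested SMAD1/5 target genes, 8 fell (Id1, Id2, Id3, Smad6, Bambi, Msx2, Dusp9 and Tbx3) and none was called higher, with a median of −0.99, where 50.5% of all genes were called lower. Of the 10 tested SMAD2/3 target genes described here, limma called 0, and 3 had an unadjusted p under 0.05, with a median of −0.12 beside −0.83 for all genes. On plain TPM, where 15.6% of all genes were called higher and 11.7% lower, the SMAD1/5 list had 2 higher (Klf4 and Smad7, the latter in both lists) and 2 lower and the SMAD2/3 list 6 higher (Lefty1, Lefty2, Tdgf1, Smad7, Eomes and Pmepa1) and 0 lower. At 24 h 3 of the 10 SMAD2/3 target genes (Lefty1, Lefty2 and Skil) and 2 of the 12 SMAD1/5 target genes (Id1 and Dusp9) were called lower, where 8.73% of all genes were. On plain TPM at 24 h the SMAD1/5 list had 5 higher (Klf4, Tbx3, Id4, Smad6 and Smad7) and 2 lower, and the SMAD2/3 list 1 higher (Smad7) and 2 lower, where 15.8% and 14.1% of all genes were called. Whether the lists differ from each other was not tested, and several of the genes named are the 10 themselves.

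**Figure D4:**
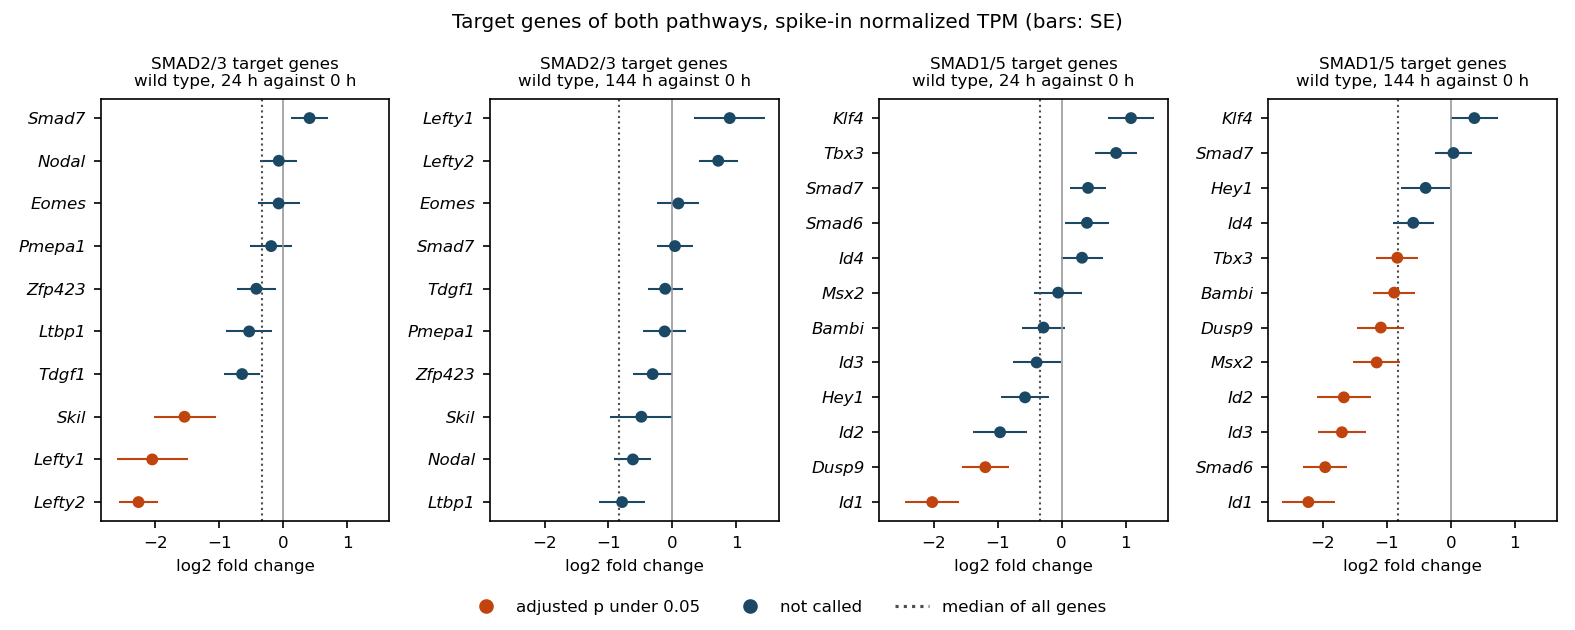
Log2 fold changes (points, with SE bars) against 0 h at 24 and 144 h in WT cells for 10 tested SMAD2/3 target genes and the 12 tested SMAD1/5 target genes, on spike-in normalized TPM, orange where the adjusted p was under 0.05, with a dotted line at the median of all genes. At 24 h Lefty1 and Lefty2 lie at −2.05 and −2.26, and at 144 h at 0.90 and 0.72, while Id1 lies at −2.03 and −2.23.

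In DKO cells 6 of the 63 genes were called lower at 24 h and none higher, a share below the 18.7% of all genes called lower, namely Gdf15 (log2FC −2.66), Dusp9 (−1.14), Fst (−1.04), Twsg1 (−1.03), Fstl1 (−0.91) and Tcf3 (−0.82). Fst, Twsg1 and Fstl1 encode secreted modulators of BMP or activin, and Tcf3 encodes an E protein that Id proteins bind. On plain TPM the balance turned, with 12 higher and 3 lower (11.6% and 13.3% of all genes), and with paired replicates it was 2 higher and 12 lower (1.95% and 38.1%). At 72 h Gdf15, a distant member of the TGF-β family, was the 1 gene of the 63 called (−2.80, SE 0.44, adjusted p = 0.00124), and 2.95% of all genes were called lower. On plain TPM 16 were called higher and 1 lower (17.2% and 9.06% of all genes), and with paired replicates 4 and 4 (5.34% and 13.2%).

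For each of the 10, the genes whose 7 group means ran closest were found by the root mean square difference of their centred log2 levels, where 0 is an identical profile. Nodal ran closest to Zfp871 (0.0398), Spin1 (0.0410) and Gm2399 (0.0428), and Smad7 to Man1c1 (0.0490), Col22a1 (0.0512) and Deptor (0.0563). The closest gene to Tdgf1 was its copy Tdgf1-ps1 (0.0429), with which it can share reads. Lefty1 had Zbp1 (0.362), Wt1 (0.388) and Mir670hg (0.397) nearest, and Lefty2 had Piwil4 (0.512), Mrc2 (0.557) and Lefty1 (0.565), so no gene followed the Lefty profiles, which vary more, as closely as Zfp871 followed Nodal. Id1 was nearest to Gm7204 (0.214), Id2 to Reep6 (0.131), Id3 to 1110038F14Rik (0.0920), Skil to Mir758 (0.125) and Bmp4 to Mir7005 (0.0765), and none of the 3 nearest genes of an Id gene was another Id gene.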

How the data were processed

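RNA-seq of 14 libraries (7 groups of genotype and mTORi time, 2 replicates each) was analysed. Per the submitters' processing notes, the authors trimmed reads with cutadapt 2.4, aligned them to mm10 with STAR 2.7.3a and quantified GENCODE VM19 genes as TPM with StringTie 2.0 (the study's methods name later releases of STAR and StringTie). TPM rows sharing a gene identifier were summed, over 54446 identifiers. The deposited TPM hold no spike-in normalization and no read counts, so sequencing depth is unknown. Each library was multiplied by 1 factor, the median ratio of the study's published ERCC-normalized TPM to the deposited TPM over genes of at least 1 TPM.

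The authors tested counts with DESeq2, and as TPM were used here, limma 3.58.1 (R 4.3.3; lmFit, eBayes with trend) was fitted to log2(TPM + 1) of all libraries in 7 groups. Genes with a mean of at least 1 were tested, and genes were called at an adjusted p under 0.05. Fold changes of low genes are understated on this scale. Alternatives were plain TPM, median-centred libraries, a pseudocount of 0.1, no filter, the compared groups alone, replicate blocks and leaving out each library.

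The study states that the time points of a biological replicate were handled in parallel, and replicate numbers were taken to mark these, which the labels do not say. Deviations of same-numbered libraries correlated at 0.222 to 0.341 between DKO groups and at 0.0622 to 0.398 between WT groups (5 of 6 pairs above 0.1), and at −0.501 to 0.116 between genotypes, so blocks were set within genotypes and DKO against WT was not blocked. The 10 genes and all lists were chosen with earlier results of these data known. Some genes and sequences of these lists are not reported here, and counts cover the rest. Outside the 10, the text names genes of the pathway lists that were called, some of them with values, and up to 3 nearest profiles of each gene. The steps from 24 to 72 h and from 72 to 144 h, and the block on plain TPM, were chosen after seeing the data. Sequences and coordinates are from GENCODE M21 (GRCm38).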

Additional observations from a re-analysis of the deposited data

How the results depend on the processing

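A pseudocount of 0.1 and a replicate block across all libraries each changed 1 call, that of Skil at 24 h in WT cells. On plain TPM the number of the 10 genes called was 2 at 72 h and 5 at 144 h in WT, 2 at 72 h in DKO, 1 between genotypes at 0 h, and 3 (24 to 72 h) and 1 (72 to 144 h) for the WT steps. In the same order 4381, 4978, 4796, 109, 2012 and 65 of all 18232 genes were called. With median-centred libraries the counts among the 10 were 1, 6, 2, 0, 4 and 1, where 4771, 5275, 5121, 101, 1922 and 42 of 18232 genes were called. When replicates were blocked within each genotype (replicate block) the counts were 3 and 6 in WT at 72 and 144 h, 2 in DKO at 72 h, 4 and 5 for the WT steps and 6 for the DKO step from 24 to 72 h, and with the block on plain TPM, added after seeing the data, 3, 5, 4, 4, 1 and 3 for the same. Without the filter on low values, where more genes entered the adjustment, they were 1 at 24 h in WT, 1 at 24 h in DKO, 0 between genotypes at 24 h, 0 for the WT step from 24 to 72 h and 1 for the DKO step. With the compared groups alone they were 1 at 72 h in WT, 2 at 24 h in DKO, 0 between genotypes at 24 h, 4 and 7 for the WT steps (the 7 where 9178 of 18232 genes were called) and 1 for the DKO step. No share of all genes is set beside the counts without the filter or the other counts with the compared groups alone. No result about the 10 genes as a set is read from those counts. With the block on plain TPM Bmp4 was called higher at 24, 72 and 144 h in WT cells (log2FC 0.92, 0.94 and 0.66) and at 24 and 72 h in DKO cells (1.14 and 1.01), where 3524, 3059, 3629, 2796 and 4280 of 18232 genes were called higher. The causes of the other changes were not tested.

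Without any 1 library, where the lone sample left in a group is assumed to vary like the others, the counts ranged from 1 to 4 (24 h), 0 to 0 (72 h) and 2 to 5 (144 h) in WT, 1 to 6 (24 h) and 0 to 1 (72 h) in DKO, 0 to 0, 0 to 1 and 0 to 2 between genotypes at 0, 24 and 72 h, 0 to 4, 0 to 1 and 1 to 6 for the steps (WT from 24 to 72 h, WT from 72 to 144 h, DKO), and 0 to 0 for both tests of the response. The 6 at 24 h in DKO and the 6 in the DKO step came without DKO replicate 1 at 24 h, where 8757 and 5799 of 18232 genes were called. At 144 h in WT, Tdgf1 reversed on plain TPM (log2FC 0.91), with centred libraries (0.72) and with the block on plain TPM (0.91), as did Nodal (0.40, 0.22 and 0.40). Smad7 reversed there without WT replicate 2 at 0 h (−0.16, and 0.24 without replicate 1) or WT replicate 1 at 144 h (−0.0061), and at 24 h in DKO without DKO replicate 1 at 24 h (−0.045, and 0.25 without replicate 2). The reversed Tdgf1 values were called (adjusted p = 0.00102, 0.00701 and 0.000374), and those of Nodal and Smad7 were not. Depth limits cannot be given from TPM.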
